A study of Mus musculus with 12 samples.

Results

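Embryoids collected at D8 were compared with embryoids collected at D7 by bulk RNA sequencing, to ask which genes changed between these days of the culture. The comparison holds 6 of the 12 libraries of the series, 3 at D8 and 3 at D7, and every embryoid library of each day was taken. Of 24946 genes listed, the 13064 with a mean above 1 TPM in D8 or D7 embryoids were tested. TPM is a transcript abundance that is corrected for gene length and scaled to the same total in each library.

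All groups were labelled as E14TG2a, a mouse embryonic stem cell line of the 129/ola strain. The Hprt values given below go against a single line for embryoids and controls. D8 and D7 embryoids were grown alike until collection: an aggregate started from 50 cells was incubated for 8 h with 10 ng/ml BMP4, a ligand of the TGF-beta superfamily, and on D3 it was merged with an untreated aggregate started from 100 cells. Control D8 and control D7 libraries came from untreated aggregates of the same sizes merged on D3, and they were used for the test of whether a change differed from that in controls. By the labels each library pooled 12 embryoids, so differences between single embryoids are averaged within a library. The written methods give another BMP4 concentration and another pool size.

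Embryoids of this kind build an anterior to posterior axis around a posterior growth zone that resembles the primitive streak. In the mouse embryo the following day of development brings the first differentiated products of each layer. Cardiac progenitors assemble sarcomeres, mesenchymal cells lay down fibrillar collagens and proteoglycans, neural progenitors leave the cell cycle under proneural bHLH factors, and the tail bud adds somites while its progenitors decline. In pooled tissue, fewer cells of a type and less RNA per cell cannot be told apart, and that holds for every value below.

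TPM fixes the total of a library, so read depth is unknown and no counting interval can be given. Between 14207 and 14354 genes were above 0 at D8, against 13589 to 13767 at D7 (exact permutation test, two-sided, p = 0.1, the smallest that 3 against 3 libraries allow). Cytosolic ribosomal protein genes took 15.92% of the total at D8 on average, against 17.19% at D7 (exact permutation test, two-sided, p = 0.2). Correlations of log2(TPM + 1) ran from 0.978 to 0.982 within D8, from 0.976 to 0.984 within D7 and from 0.969 to 0.975 between the days. Cardiac, endothelial, erythroid, neural, somite and gut markers were all present on both days. Zfp42 of pluripotent cells, Elf5, Tpbpa and Gcm1 of trophoblast, Ddx4 and Dazl of germ cells and Ptprc of white blood cells were listed at 0 in all 6. Other markers of pluripotent and germ cells were not. Pou5f1 had 0, 2 and 1 TPM at D8, against 2, 2 and 1 TPM at D7. Nanog had 0, 1 and 0 TPM at D8 and was at 0 at D7. The germ cell gene Nanos3 had 2, 2 and 3 TPM at D8, against 1, 2 and 2 TPM at D7. For Hprt the D8 embryoid values were 0, 0 and 1 TPM and each D7 embryoid library had 1 TPM, against 32 to 35 TPM in D8 controls and 34 to 36 TPM in D7 controls. The embryoids and the controls thus differed at a gene that should not differ within 1 line, and results that rest on the controls are named as such. Tgoln2, a trans-Golgi gene of most cells, was listed at 33, 32 and 32 at D8 and at 29, 0 and 30 at D7, so a single 0 need not mean absence.

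Far more genes were higher than lower at D8. The test was limma on log2(TPM + 1), and a call needed an adjusted p (Benjamini-Hochberg) below 0.05 together with a log2 fold change beyond 1 or -1. By this rule 210 genes (1.61% of those tested) were called, 205 higher (1.57%) and 5 lower (0.0383%). At an unadjusted p under 0.05 there were 2382 higher and 665 lower genes. All 210 called genes had D8 and D7 values that did not overlap, as did 2384 genes (18.2%) with every D8 library above every D7 library and 818 (6.26%) with every D8 library below. The median log2 fold change over all tested genes was 0.09, and that of the genes called higher was 1.28.

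**Figure D1:**
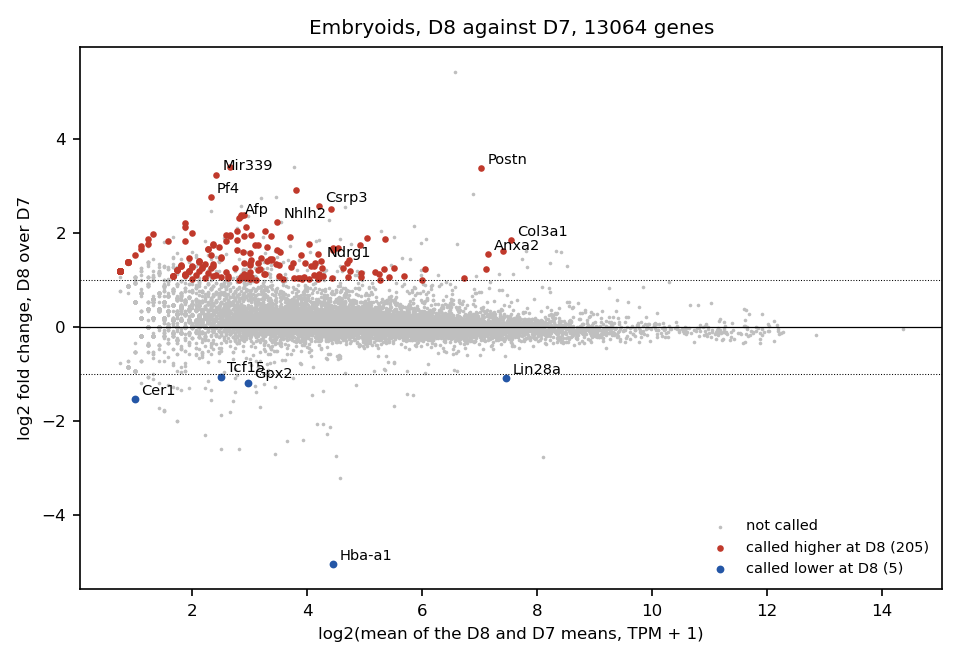
Log2 fold change of D8 over D7 embryoids (vertical axis) against the log2 mean level in TPM (horizontal axis) for 13064 genes, 1 point each. Red points are the 205 genes called higher at D8, blue points the 5 called lower and grey points those not called, and dotted lines mark a log2 fold change of 1 and -1. Most called genes lie above the zero line and many of them at low levels, whereas Postn, Col3a1 and Anxa2 stand out at high levels.

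The number of calls rested on every library. It was 12 without D8 replicate 1, 0 without D8 replicate 2 (2282 genes at an unadjusted p under 0.05), 52 without D8 replicate 3, 12 without D7 replicate 1, 62 without D7 replicate 2 and 164 without D7 replicate 3. Quantile scaling, which moved the median log2 fold change of all genes to -0.05, gave 97 genes called higher and 16 lower, so that 85.8% of calls were higher, against 97.6% of the 210. Low values carry much of the list as well. Of the 205 higher genes, 41 were listed at 0 in all 3 D7 libraries, 64 had a D8 mean under 5 TPM and 33 had no D8 library above 2 TPM, where rounding to whole numbers alone can shift a value by up to 0.5. In 47 of the 205 the D7 mean was under 1 TPM, so they passed the filter through D8 alone.

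The matrix of mesenchyme, the collagens and proteoglycans that connective tissue cells secrete, held the largest share of called members. Of 22 tested genes 9 were higher and 0 were lower at D8, against 1.57% of all genes called higher, and 15 had every D8 library above every D7 library, against 18.2% of all genes. Their median log2 fold change was 0.84, against 0.09 over all genes.

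Postn encodes periostin, a secreted protein of developing valves, bone and other connective tissue, and it lies on chromosome 3 from 54359267 to 54391041 (GRCm38, the build also called mm10). It had 129, 250 and 329 TPM in D8 embryoids, against 25, 30 and 11 TPM in D7 embryoids. The lowest D8 library was more than 4 times the highest D7 library. The log2 fold change was 3.37 ± 0.50 (SE, adjusted p = 0.0316), and Postn was listed at 0 in all 6 controls. Among called genes with a D7 mean of 5 TPM or more, Postn had the largest ratio of means, 10.7.

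Col3a1, the chain of type III collagen, was the called gene with the highest mean at D8. It had 181, 341 and 359 TPM in D8 embryoids, against 79, 85 and 68 TPM in D7 embryoids, a log2 fold change of 1.85 ± 0.28 (adjusted p = 0.0304). Col1a1, a chain of type I collagen, had 23, 55 and 61 TPM at D8, against 13, 11 and 12 TPM at D7 (log2 fold change 1.75 ± 0.36, adjusted p = 0.0490). The partner chain Col1a2 had 51, 117 and 128 TPM at D8, against 28, 27 and 23 TPM at D7. Its log2 fold change of 1.78 ± 0.36 was as large as that of Col1a1, but its adjusted p of 0.0508 left it just outside the call.

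Lum and Dcn encode lumican and decorin, small leucine-rich proteoglycans that bind collagen fibrils, and both lie on chromosome 10, Dcn from 97479500 to 97518163 and Lum from 97565501 to 97572703. Lum had 19, 43 and 44 TPM at D8, against 5, 8 and 3 TPM at D7 (log2 fold change 2.51 ± 0.42, adjusted p = 0.0334). Dcn had 4, 13 and 9 TPM at D8, against 1, 2 and 1 TPM at D7 (log2 fold change 1.96 ± 0.37, adjusted p = 0.0345). Both proteoglycans had their lowest D8 value in replicate 1.

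The fibril and microfibril collagens of lower level were called as well. Col5a2 of type V collagen had 8, 16 and 18 TPM at D8, against 5, 5 and 3 TPM at D7, with a log2 fold change of 1.45 ± 0.30. Chains of type VI collagen, which forms beaded microfibrils, were called with Col6a1 at a log2 fold change of 1.13 ± 0.18, Col6a2 at 1.30 ± 0.19 and Col6a3 at 1.25 ± 0.24. Col6a2 had 3, 4 and 5 TPM at D8, against 1 TPM in each D7 library. Fn1, fibronectin, had 113, 171 and 202 TPM at D8, against 131, 97 and 151 TPM at D7, and those values overlap.

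D8 replicate 1 was the lowest of the D8 libraries for 21 of the 22 matrix genes, and replicate 3 was the highest for 15. In the test of the difference between the day change in embryoids and that in controls, 11 of the 22 were called above controls, against 1.61% of all genes. All 9 called members were among them. Where controls were at 0, as for Postn and Col3a1, the difference was the embryoid change itself, so it adds no separate result. By counts added after the values were seen, 3 matrix genes were called without D8 replicate 1, 2 without D7 replicate 3 and 0 without each of the other 4 libraries.

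Sequence before the start sites of the called matrix genes is shown for the 4 with the largest change that the RefSeq promoter table (GRCm38.p6) covers, since these genes were called together. Each run is the 250 bases before 1 listed start, with the matches to TATAAA in capitals on either strand. Postn has a pair of listed starts and both are shown. Col6a2 has another listed start, which is where the gene begins. The window of that start (76623631 to 76623880) is not printed and holds no TATAAA. The Col6a2 run shown lies before a start inside the gene.
Postn, first start (chr3:54359017-54359266, plus strand): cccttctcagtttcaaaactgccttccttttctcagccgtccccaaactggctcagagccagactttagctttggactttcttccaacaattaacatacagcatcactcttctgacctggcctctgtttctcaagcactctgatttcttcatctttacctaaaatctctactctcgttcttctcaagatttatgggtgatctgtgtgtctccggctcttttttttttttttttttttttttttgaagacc
Postn, second start (chr3:54360857-54361106, plus strand): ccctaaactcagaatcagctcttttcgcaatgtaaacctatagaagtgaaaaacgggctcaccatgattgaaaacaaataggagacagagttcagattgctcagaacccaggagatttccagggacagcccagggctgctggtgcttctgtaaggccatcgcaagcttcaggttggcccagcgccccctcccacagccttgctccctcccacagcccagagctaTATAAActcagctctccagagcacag
Col3a1 (chr1:45311288-45311537, plus strand): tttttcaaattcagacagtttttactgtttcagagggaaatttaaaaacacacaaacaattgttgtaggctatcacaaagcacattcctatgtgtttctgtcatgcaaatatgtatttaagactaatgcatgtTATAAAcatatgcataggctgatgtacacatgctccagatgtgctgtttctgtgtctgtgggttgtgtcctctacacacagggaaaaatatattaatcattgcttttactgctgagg
Col6a2 (chr10:76623405-76623654, minus strand): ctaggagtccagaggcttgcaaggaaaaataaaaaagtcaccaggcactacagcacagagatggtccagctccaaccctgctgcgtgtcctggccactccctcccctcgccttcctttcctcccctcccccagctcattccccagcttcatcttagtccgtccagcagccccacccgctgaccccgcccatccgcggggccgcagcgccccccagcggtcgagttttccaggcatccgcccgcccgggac
Col6a3 (chr1:90843972-90844221, minus strand): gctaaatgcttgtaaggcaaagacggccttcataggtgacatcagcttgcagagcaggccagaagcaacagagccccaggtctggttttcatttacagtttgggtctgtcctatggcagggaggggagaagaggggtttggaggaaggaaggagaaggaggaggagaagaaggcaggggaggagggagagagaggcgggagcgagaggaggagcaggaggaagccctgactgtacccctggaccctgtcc
The run before the second Postn start holds TATAAA 26 bases before that start and the Col3a1 run 117 bases before its start. Those letters are not in the run before the first Postn start, which is where the gene begins, nor in the Col6a2 and Col6a3 windows. Over all windows of this length, TATAAA on either strand was present in 17.2% of 203 windows of genes called higher (149 of 205 genes matched), against 6.36% of 12807 windows of all tested genes. The other motifs searched on both strands differed less. AGATAA was in 8.87% of windows of genes called higher, against 5.66% of all. CCAAT was in 38.9%, against 35.6% of all. CANNTG, the E-box, was in 62.6%, against 57.0% of all. A match is a match of letters only.

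**Figure D2:**
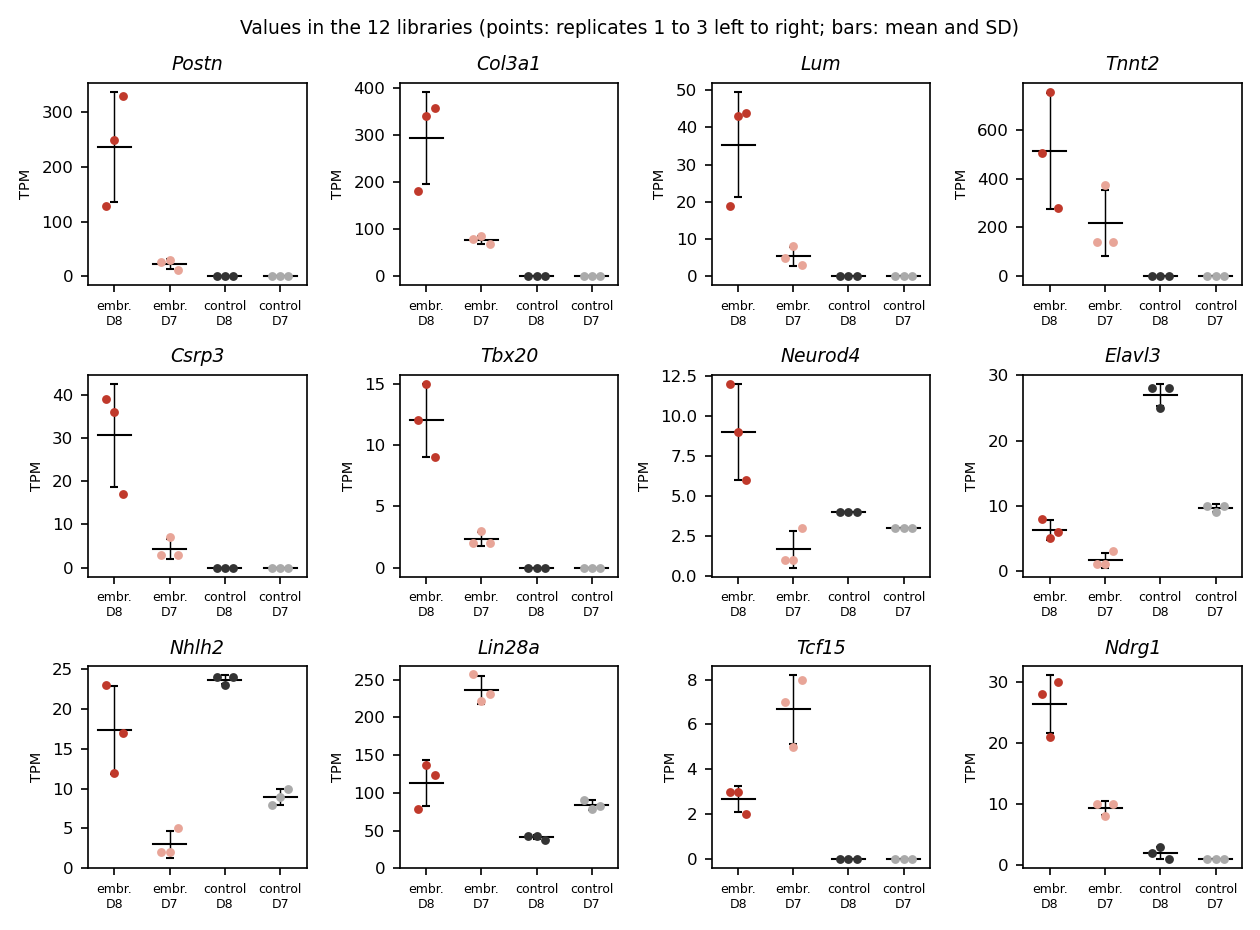
TPM (vertical axes, linear) of 12 genes in the 3 libraries of each group, D8 and D7 embryoids followed by D8 and D7 controls, with the mean and SD as bars. Matrix and cardiac genes have D8 values up to several times their D7 values with a wide spread at D8 and are at or near 0 in controls, neuronal genes are also higher at D8 in controls, and Lin28a is lower at D8 in both.

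Cardiac sarcomere genes were higher at D8 in their means throughout, but few passed the test. All 22 tested genes had a positive log2 fold change with a median of 1.41, and 14 had every D8 library above every D7 library, against 18.2% of all genes. Of the 22, 3 were called higher, against 1.57% of all genes, and 0 lower. The most abundant members were among those not called.

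Tnnt2, cardiac troponin T, had 507, 756 and 280 TPM in D8 embryoids, against 139, 374 and 138 TPM in D7 embryoids. D7 replicate 2 lay above D8 replicate 3, and the log2 fold change of 1.30 ± 0.54 had an adjusted p of 0.230. Actc1, cardiac actin, had 556, 720 and 275 TPM at D8, against 120, 248 and 131 TPM at D7 (log2 fold change 1.60 ± 0.45, adjusted p = 0.108). Myl7, the atrial myosin light chain, had 578, 662 and 206 TPM at D8, against 91, 272 and 111 TPM at D7 (log2 fold change 1.61 ± 0.61, adjusted p = 0.197). D8 replicate 3 was the lowest D8 library for all 22 sarcomere genes, and D7 replicate 2 was the highest D7 library for 20.

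The 3 called members were Csrp3, Tnni3 and Des. Csrp3, a LIM protein of the Z-disc, had 39, 36 and 17 TPM at D8, against 3, 7 and 3 TPM at D7 (log2 fold change 2.57 ± 0.40, adjusted p = 0.0277). Tnni3, cardiac troponin I, had 30, 29 and 15 TPM at D8, against 7, 11 and 8 TPM at D7 (1.37 ± 0.28, adjusted p = 0.0433). In controls Tnni3 had 7, 10 and 9 TPM at D8, against 15, 13 and 12 TPM at D7, so it was the opposite way there. Des, the muscle intermediate filament desmin, had 21, 23 and 15 TPM at D8, against 7, 12 and 8 TPM at D7 (1.06 ± 0.22, adjusted p = 0.0426). Without D8 replicate 3 the number of called members was 6, without D7 replicate 2 it was 1, and it was 0 without each of the other 4 libraries.

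A pair of cardiac regulators rose with less spread. Tbx20, a T-box factor of cardiac progenitors and chamber muscle, had 12, 15 and 9 TPM at D8, against 2, 3 and 2 TPM at D7 (log2 fold change 1.95 ± 0.21, adjusted p = 0.0108). Gata6, a zinc finger factor of heart and endoderm, had 8, 11 and 10 TPM at D8, against 4, 5 and 3 TPM at D7 (1.10 ± 0.18, adjusted p = 0.0255). They were the 2 called members of 14 tested cardiac transcription factors, against 1.57% of all genes called higher, and the median of the list was 0.58. Pln, phospholamban, which restrains the calcium pump of the sarcoplasmic reticulum, had 6, 6 and 3 TPM at D8, against 0, 1 and 0 TPM at D7 (2.20 ± 0.35, adjusted p = 0.0236).

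Other muscle genes were called as well. Cox6a2, the muscle and heart isoform of a cytochrome c oxidase subunit, had 17, 11 and 7 TPM at D8, against 1, 2 and 1 TPM at D7 (2.39 ± 0.31, adjusted p = 0.0147). Myl1, a myosin light chain of embryonic and fast muscle, had 16, 23 and 10 TPM at D8, against 3, 7 and 4 TPM at D7 (1.60 ± 0.35). Tnnt1, slow muscle troponin T, had 7, 10 and 4 TPM at D8, against 1, 2 and 1 TPM at D7 (1.73 ± 0.31), and 8, 7 and 9 TPM in D8 controls, against 3 TPM in each D7 control. Myl1, Csrp3, Tbx20, Pln and Cox6a2 were listed at 0 in all 6 controls. Of the 6 tested smooth muscle genes limma called 0 (4 higher at an unadjusted p under 0.05), with a median of 0.80.

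A part of the neuronal differentiation genes rose at D8. Of 13 tested proneural genes 5 were called higher and 0 lower, with a median log2 fold change of 1.27, and of 20 pan-neuronal genes 7 were higher and 0 lower, with a median of 1.15. Over all genes 1.57% were called higher. Every D8 library lay above every D7 library for 18 of the 20 pan-neuronal genes, against 18.2% of all genes.

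The 5 proneural genes encode bHLH factors that start neurogenesis or act in newborn neurons. Nhlh2 had 23, 12 and 17 TPM at D8, against 2, 2 and 5 TPM at D7 (log2 fold change 2.23 ± 0.33, adjusted p = 0.0214). Neurod4 had 12, 9 and 6 TPM at D8, against 1, 1 and 3 TPM at D7 (1.94 ± 0.33, adjusted p = 0.0276). Nhlh1 had 27, 14 and 17 TPM at D8, against 3, 3 and 8 TPM at D7 (1.90 ± 0.38, adjusted p = 0.0433). The neurogenins were lower in level but had less spread. Neurog1 had 7, 7 and 5 TPM at D8, against 1, 1 and 2 TPM at D7 (1.67 ± 0.22, adjusted p = 0.0147), and Neurog2 had 6, 5 and 5 TPM at D8, against 1, 2 and 2 TPM at D7 (1.27 ± 0.20, adjusted p = 0.0225).

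Cntn2, an axonal adhesion molecule, had 22, 8 and 14 TPM at D8, against 2, 2 and 4 TPM at D7 (log2 fold change 2.04 ± 0.36, adjusted p = 0.0318). Dcx, a microtubule-binding protein of migrating neurons, had 9, 6 and 7 TPM at D8, against 1, 1 and 3 TPM at D7 (1.71 ± 0.29). Stmn2, a tubulin-binding protein of growing axons, had 51, 29 and 32 TPM at D8, against 10, 11 and 19 TPM at D7 (1.43 ± 0.29). The other 4 called members were Ina, a neuronal intermediate filament (1.58 ± 0.25), the RNA-binding proteins Elavl3 (1.52 ± 0.30) and Elavl4 (1.25 ± 0.28), and Snap25, a SNARE protein of neurons (1.11 ± 0.24). Tubb3, a neuronal tubulin of high level, had 463, 213 and 286 TPM at D8, against 98, 118 and 170 TPM at D7, and was not called (1.27 ± 0.34, adjusted p = 0.0962). D8 replicate 1 was the highest D8 library for 19 of the 20 pan-neuronal genes, and D7 replicate 3 the highest D7 library for 19.

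The neuronal genes were higher at D8 in controls too, and at higher levels. Cntn2 had 40, 40 and 41 TPM in D8 controls, against 11, 11 and 13 TPM in D7 controls, and Dcx had 65, 54 and 58 TPM, against 14, 16 and 18 TPM. All 20 pan-neuronal genes had a control D8 mean above the control D7 mean. In the test of the difference between embryoids and controls, 0 of the 20 were called above and 1 below, against 0.894% of all genes called below. Without D7 replicate 3 the number of pan-neuronal genes called was 11, and it was 0 without any of the other 5 embryoid libraries. For proneural genes it was 5 without D7 replicate 3, 1 without D8 replicate 3 and 0 without the others.

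Some neural genes moved apart from controls. Pax6, a homeobox factor of neural progenitors, had 22, 19 and 15 TPM in D8 embryoids, against 7, 7 and 12 TPM in D7 embryoids (log2 fold change 1.05 ± 0.22, adjusted p = 0.0437). In controls the order was the other way, with 40, 43 and 37 TPM at D8, against 85, 80 and 80 TPM at D7, and the difference of the day changes was 2.06 (adjusted p = 0.00106). Neurod4 (1.62) and Neurog1 (1.04) were also called in that test. Pou3f2, a POU factor of neural progenitors and neurons, was the other called progenitor gene, with 13, 9 and 8 TPM at D8, against 3, 3 and 6 TPM at D7 (1.16 ± 0.26). Pax6 and Pou3f2 were the 2 called of 11 tested neural progenitor genes, against 1.57% of all genes called higher, and the list median was 0.805. Vim, the intermediate filament vimentin, had 1248, 1111 and 1166 TPM at D8, against 640, 687 and 633 TPM at D7. Its adjusted p was 0.00533, but its log2 fold change of 0.85 ± 0.06 was below the minimum of 1.

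Robo3, a guidance receptor of commissural axons, had 13, 7 and 14 TPM at D8, against 1, 1 and 4 TPM at D7 (2.13 ± 0.41). Bcl11a, a zinc finger factor of neurons and blood, had 11, 8 and 14 TPM at D8, against 2, 1 and 1 TPM at D7 (2.36 ± 0.24, adjusted p = 0.0106). Mir124a-1hg, a host transcript of the neuronal miR-124, had 13, 9 and 11 TPM at D8, against 1, 1 and 2 TPM at D7 (2.38 ± 0.21, adjusted p = 0.00932). C130071C03Rik, a long noncoding RNA, had 33, 15 and 23 TPM at D8, against 2, 1 and 4 TPM at D7 (2.92 ± 0.39, adjusted p = 0.0190). All 4 had every D8 library above every D7 library, and all 4 were also higher at D8 in the mean of the controls.

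**Figure D3:**
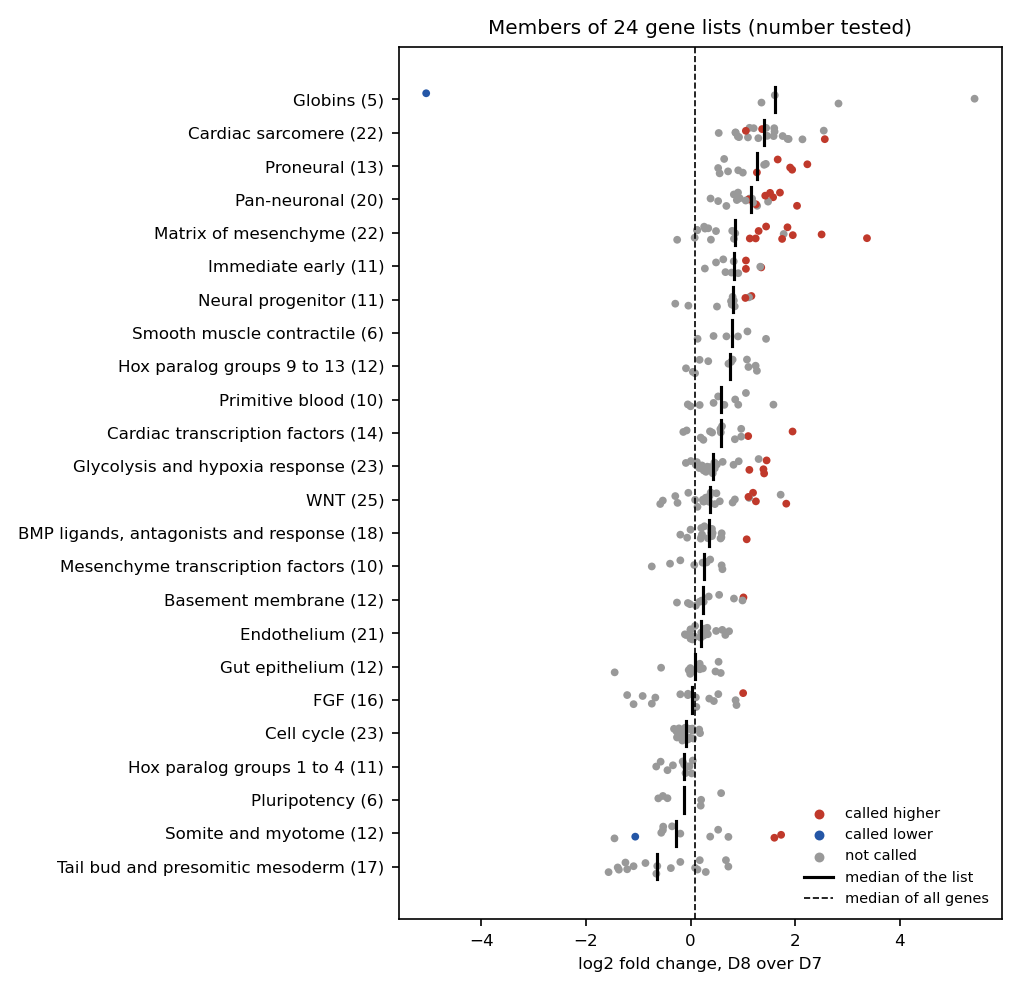
Log2 fold change of D8 over D7 embryoids (horizontal axis) for the tested members of 24 gene lists (rows, number tested in brackets), 1 point a gene, red where called higher, blue where called lower and grey where not called. Black bars are list medians and the dashed line is the median of all genes, 0.09. Globin, cardiac sarcomere, proneural and pan-neuronal medians lie above 1, the tail bud median lies at -0.64, and only the globin and somite lists hold a gene called lower.

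The tail bud list had the lowest median of the 50 lists, but none of its genes was called. Of 17 tested tail bud and presomitic mesoderm genes limma called 0 (5 lower and 2 higher at an unadjusted p under 0.05), with 11 negative and 6 positive log2 fold changes and a median of -0.64. T, brachyury, which marks the primitive streak and tail bud, had 3, 29 and 6 TPM at D8, against 30, 25 and 17 TPM at D7. D8 replicate 2 lay within the D7 range while the other D8 libraries lay below it, and the log2 fold change was -1.37 ± 0.77 (adjusted p = 0.353). Cdx2, a homeobox factor of the posterior axis, had 7, 27 and 18 TPM at D8, against 46, 42 and 27 TPM at D7 (-1.24 ± 0.50, adjusted p = 0.215). Fgf8, a growth factor of the presomitic mesoderm, had 2, 5 and 3 TPM at D8, against 10, 8 and 6 TPM at D7, without overlap but not called (-1.09 ± 0.28, adjusted p = 0.0644).

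Among somite and myotome genes, 2 of 12 tested were higher, Tnnt1 and Myl1, and 1 was lower. Over all genes 1.57% were called higher and 0.0383% lower. The lower gene was Tcf15, a bHLH factor that somites need to become epithelial, with 3, 3 and 2 TPM at D8, against 7, 5 and 8 TPM at D7 (log2 fold change -1.06 ± 0.20, adjusted p = 0.0334). Meox1, a homeobox factor of somites, had 20, 52 and 21 TPM at D8, against 100, 52 and 93 TPM at D7. D8 replicate 2 and D7 replicate 2 had the same value, and Meox1 was not called (-1.45 ± 0.45, adjusted p = 0.131). Within the list, the called muscle structure genes were thus higher and the called early somite factor was lower. Tnnt1 and Myl1 had their lowest D8 value in replicate 3 and their highest D7 value in replicate 2, the same libraries as the sarcomere genes. The list members Myf5 and Myod1 were at 0 in all 6 libraries, and Myog had 1 TPM in each D8 library and 0 at D7. Which tissue Tnnt1 and Myl1 came from was not tested.

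Lin28a was the most abundant of the 5 genes called lower. It encodes an RNA-binding protein that blocks the maturation of let-7 microRNAs. It had 79, 137 and 124 TPM in D8 embryoids, against 257, 221 and 231 TPM in D7 embryoids (log2 fold change -1.09 ± 0.20, adjusted p = 0.0387). Controls had 43, 43 and 38 TPM at D8, against 91, 78 and 82 TPM at D7, and the difference of the day changes was not called (adjusted p = 0.869). Dnmt3b, a DNA methyltransferase of the epiblast, had 16, 19 and 18 TPM at D8, against 30, 24 and 29 TPM at D7, with an adjusted p of 0.0325 and a log2 fold change of -0.62 that did not reach the minimum.

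Cer1, a secreted antagonist of Nodal and BMP ligands, was listed at 0 in all D8 libraries, against 3, 1 and 2 TPM at D7 (adjusted p = 0.0372). Gpx2, a glutathione peroxidase of gut epithelium, had 3, 4 and 4 TPM at D8, against 11, 13 and 6 TPM at D7 (log2 fold change -1.19 ± 0.26, adjusted p = 0.0466). Of the 12 tested gut epithelium genes limma called 0 (1 higher and 1 lower at an unadjusted p under 0.05), and their median was 0.09.

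The fifth lower gene was Hba-a1, an adult alpha globin, and its call is uncertain. Hba-a1 was listed at 0 in all D8 libraries, against 48, 67 and 10 TPM at D7 (adjusted p = 0.0252). Its neighbour Hba-a2 had 71, 169 and 281 TPM at D8, against 42, 0 and 0 TPM at D7 (adjusted p = 0.121). The pair lies on chromosome 11, Hba-a1 from 32283672 to 32284486 and Hba-a2 from 32296492 to 32297310. Of the 480 stretches of 75 bases, the read length, in the Hba-a2 transcript, 389 (81.0%) occur unchanged in the Hba-a1 transcript, so most reads could come from either gene. Summed, the pair had 71, 169 and 281 TPM at D8, against 90, 67 and 10 TPM at D7, and the sum, an alternative added after the values were seen, was not called (log2 fold change 1.89 ± 0.95, adjusted p = 0.315).

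Embryonic globins varied widely among libraries of the same day. Hbb-bh1, an embryonic beta-like globin, had 171, 416 and 589 TPM at D8, against 315, 274 and 28 TPM at D7. Hba-x, the embryonic alpha-like globin, had 117, 305 and 538 TPM at D8, against 199, 154 and 21 TPM at D7. D8 replicate 3 was the highest and D7 replicate 3 the lowest library for Hbb-bh1 and Hba-x, the groups overlapped, and neither was called (adjusted p = 0.496 and 0.406). Hbb-y, the other embryonic beta-like globin, had 72, 136 and 409 TPM at D8, against 50, 31 and 6 TPM at D7, without overlap and not called (adjusted p = 0.160). Of 10 tested primitive blood genes limma called 0 (2 higher at an unadjusted p under 0.05), with a median of 0.59, and D7 replicate 3 was the lowest D7 library for all 10.

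**Figure D4:**
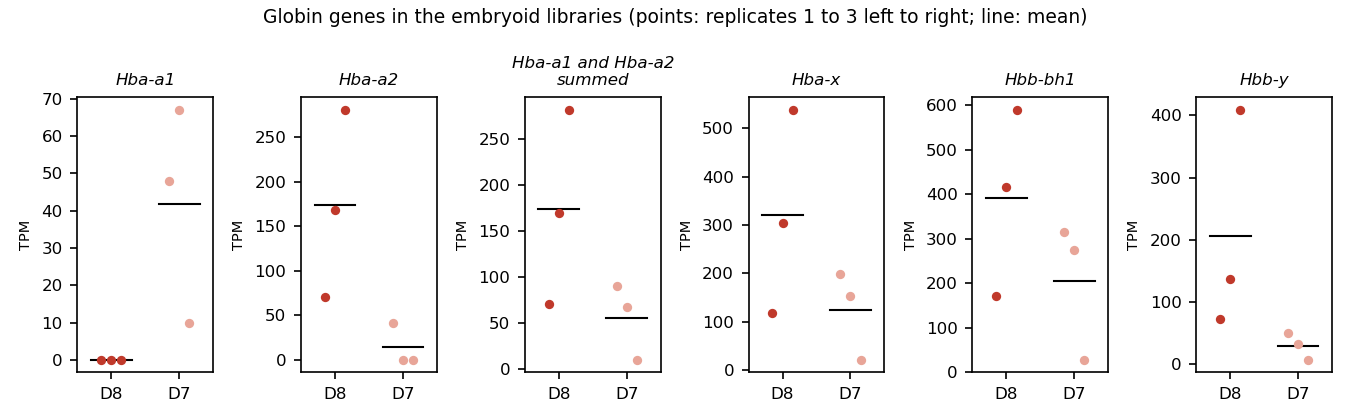
TPM (vertical axes, linear) of 5 globin genes and of Hba-a1 and Hba-a2 summed in the 3 D8 and the 3 D7 embryoid libraries, with the mean as a line. Hba-a1 is at 0 in D8 and Hba-a2 at 0 in D7 replicates 2 and 3, while the sum of the pair and the embryonic globins Hba-x and Hbb-bh1 overlap between the days.

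Pf4, platelet factor 4, a chemokine of megakaryocytes and some macrophages, was called. It had 7, 6 and 10 TPM at D8, against 1, 0 and 0 TPM at D7 (log2 fold change 2.76 ± 0.32, adjusted p = 0.0118). Fcer1g, an adaptor of Fc receptors in white blood cells, had 1, 1 and 2 TPM at D8 and was listed at 0 in every D7 library (adjusted p = 0.0494). Those Fcer1g values are at the limit of rounding, and the gene passed the filter through D8 alone. Both were listed at 0 in all controls. Of the defining macrophage markers, Ptprc was listed at 0 in all 6 embryoid libraries, Csf1r at 0, 0 and 1 and Tyrobp at 0, 1 and 1 at D8, against 0 throughout at D7.

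Vessel genes passed the test nowhere. Of 21 tested endothelial genes limma called 0 (6 higher at an unadjusted p under 0.05), with a median of 0.20 and 6 whose D8 values all lay above D7, against 18.2% of all genes. Emcn, endomucin, had 27, 28 and 26 TPM at D8, against 21, 19 and 17 TPM at D7 (log2 fold change 0.49 ± 0.10, adjusted p = 0.0387). Robo4, an endothelial guidance receptor, had 4 TPM in each D8 library, against 2 TPM in each D7 library (0.74 ± 0.13, adjusted p = 0.0293). Both passed the adjusted p and not the minimum fold.

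The level of the lists differed among the 3 libraries of a day. In D8 replicate 1 the mean log2(TPM + 1) of pan-neuronal genes was 0.96 above the mean of the 6 libraries, against 0.28 and 0.49 in D8 replicates 2 and 3, while that of matrix genes was 0.07, against 0.70 and 0.77. Cardiac sarcomere genes stood at 0.92, 1.25 and -0.02 in D8 replicates 1 to 3, and at -1.05, -0.15 and -0.97 in D7 replicates 1 to 3. Globins ranged from -0.27 to 1.42 among D8 libraries and from -2.48 to 0.93 among D7 libraries. Whether the makeup of the pools differed was not tested.

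**Figure D5:**
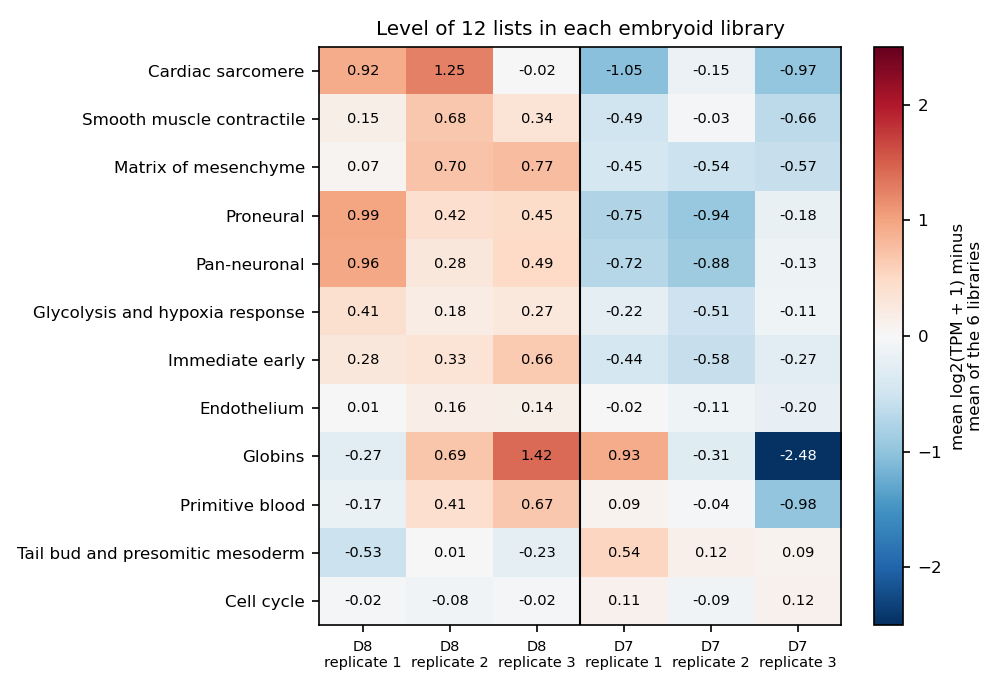
Mean log2(TPM + 1) over the tested members of 12 gene lists (rows) in each embryoid library (columns, D8 replicates 1 to 3, then D7 replicates 1 to 3), minus the mean of the 6 libraries, as colour and number. Matrix, proneural and pan-neuronal genes are higher in every D8 library than in every D7 library, whereas globins, primitive blood and cell cycle genes overlap between the days, and D8 replicate 3 is the low D8 library for cardiac sarcomere genes.

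Genes of glycolysis and of the response to low oxygen had D8 values above D7 in most cases. Of 23 tested genes 4 were called higher, against 1.57% of all genes, and 0 lower. Every D8 library lay above every D7 library for 18, against 18.2% of all genes, and the median log2 fold change was 0.43. Ndrg1, a stress response protein induced by low oxygen, had 28, 21 and 30 TPM at D8, against 10, 8 and 10 TPM at D7 (log2 fold change 1.39 ± 0.15, adjusted p = 0.0113). Bnip3, which drives the removal of mitochondria, had 63, 44 and 46 TPM at D8, against 24, 17 and 28 TPM at D7 (1.12 ± 0.20, adjusted p = 0.0312). Pfkp, a phosphofructokinase, had 18, 13 and 12 TPM at D8, against 5, 3 and 6 TPM at D7 (1.45 ± 0.24, adjusted p = 0.0244), and Adm, the vasodilator adrenomedullin, had 7, 3 and 6 TPM at D8, against 1, 1 and 2 TPM at D7 (1.41 ± 0.30, adjusted p = 0.0437).

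In controls Ndrg1 had 2, 3 and 1 TPM at D8, against 1 TPM in each D7 library, and the difference from embryoids was not called (adjusted p = 0.105). Of the 4 genes, Adm was called in that test. P4ha2, a prolyl hydroxylase that modifies collagen, had 84, 77 and 93 TPM in D8 embryoids, against 43, 37 and 45 TPM in D7 embryoids (1.01 ± 0.10, adjusted p = 0.00967). D7 replicate 2 was the lowest D7 library for 20 of the 23 glycolysis and hypoxia genes. It was also the lowest for 12 of 12 basement membrane and 18 of 20 guidance genes, but for 0 of 22 cardiac sarcomere genes. Cytosolic ribosomal protein genes took 18.66% of its total, against 16.1% and 16.81% in D7 replicates 1 and 3. Whether that bears on the glycolysis and hypoxia list was not tested. The number called was 3 without D7 replicate 3, 1 without D8 replicate 3, 1 without D7 replicate 2 and 0 without the other 3.

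Immediate early genes, transcription factors switched on quickly by a stimulus, had D8 values above D7 in all but 1 case. Of 11 tested, 3 were called higher, against 1.57% of all genes, and 0 lower. Every D8 library lay above every D7 library for 10, against 18.2% of all genes, and the median was 0.83. Jun had 34, 33 and 36 TPM at D8, against 15, 15 and 18 TPM at D7 (log2 fold change 1.06 ± 0.10, adjusted p = 0.00932). Egr1 had 58, 53 and 59 TPM at D8, against 30, 21 and 30 TPM at D7 (1.06 ± 0.14, adjusted p = 0.0158). Fos had 11, 18 and 27 TPM at D8, against 7, 5 and 7 TPM at D7 (1.35 ± 0.30, adjusted p = 0.0493). In controls Egr1 had 5, 3 and 4 TPM at D8, against 5, 8 and 6 TPM at D7, and Fos had 4, 3 and 3 TPM, against 4, 6 and 4 TPM. The difference of the day changes was called for both, at 1.61 for Egr1 and 1.73 for Fos. With 1 library left out, the number called was 3 without D7 replicate 3, 1 without D8 replicate 3, 1 without D7 replicate 2 and 0 without the other 3.

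Signalling genes changed singly. In the WNT list 4 of 25 tested genes were higher, against 1.57% of all genes, and 0 lower, with a median of 0.36. Wnt7a, a ligand of the neural tube and limb ectoderm, had 11, 9 and 5 TPM at D8, against 1, 1 and 3 TPM at D7 (log2 fold change 1.83 ± 0.35, adjusted p = 0.0342). Controls had 3 TPM in each D8 library, against 6, 8 and 7 TPM at D7, and the difference of the day changes was 2.82. Wnt2, a ligand of foregut mesenchyme and heart, had 39, 30 and 32 TPM at D8, against 12, 17 and 12 TPM at D7 (1.25 ± 0.16, adjusted p = 0.0142), and was listed at 0 in all controls. Dkk2, a secreted WNT modulator, had 4, 3 and 5 TPM at D8, against 1, 2 and 1 TPM at D7 (1.11 ± 0.24). The WNT agonist Rspo2 had 1, 2 and 1 TPM at D8 and was at 0 at D7, which is at the limit of rounding, whereas it had 416, 417 and 433 TPM in D8 controls, against 339, 373 and 359 TPM in D7 controls.

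In the FGF list 1 of 16 tested genes was called, against 1.57% of all genes called higher. At an unadjusted limma p under 0.05 there were 5 higher and 4 lower FGF genes, and the median was 0.03. Etv4, Etv5 and Fgf8 had every D8 library below every D7 library, and 2 FGF genes had every D8 library above. Fgf10, a mesenchymal ligand of limb, lung and heart field, had 8, 8 and 9 TPM at D8, against 4, 4 and 3 TPM at D7 (log2 fold change 1.01 ± 0.14, adjusted p = 0.0162). The BMP list held 1 called gene of 18, against the same 1.57%. It was Id4, an inhibitor of bHLH factors that responds to BMP, with 7, 6 and 5 TPM at D8, against 2, 2 and 3 TPM at D7 (1.07 ± 0.18). Of 16 Notch, 9 Hedgehog and 11 retinoic acid genes limma called 0, with medians of 0.30, 0.18 and -0.22. At an unadjusted p under 0.05 there were 5 higher and 2 lower Notch genes, 3 higher Hedgehog genes, and 2 higher and 3 lower retinoic acid genes.

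Receptors and regulators of other lineages were also among the called genes. Ednrb, the endothelin receptor of the neural crest, had 26, 21 and 21 TPM at D8, against 8, 6 and 13 TPM at D7 (log2 fold change 1.30 ± 0.24, adjusted p = 0.0333). It was the 1 called gene of 9 tested neural crest and glia genes, against 1.57% of all genes called higher, and their median was 0.41. In controls Ednrb had 15 TPM in each D8 library, against 11, 9 and 10 TPM at D7. The limma test of the difference did not call it (adjusted p = 0.123). Epha3, an ephrin receptor of axons and mesenchyme, had 8, 6 and 8 TPM at D8, against 2 TPM in each D7 library (1.46 ± 0.15, adjusted p = 0.00967). Gadd45g, a growth arrest gene of differentiating neurons, had 72, 59 and 59 TPM at D8, against 22, 27 and 29 TPM at D7 (1.26 ± 0.13, adjusted p = 0.00967). In controls Gadd45g had 73, 72 and 78 TPM at D8, against 48, 46 and 46 TPM at D7. Ccno, a regulator of multiciliated cells, was at 2, 1 and 1 TPM at D8 and at 0 at D7, again at the limit of rounding.

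Afp, alpha-fetoprotein, the main serum protein of yolk sac endoderm and fetal liver, had 7, 13 and 12 TPM at D8, against 1, 2 and 1 TPM at D7 (log2 fold change 2.31 ± 0.26, adjusted p = 0.0117). In the list of yolk sac and liver secreted proteins, Afp was the 1 called gene of 5 tested, with a median of 1.33, against 1.57% of all genes called higher. D7 replicate 2 was the highest D7 library for all 5. Of the untested members, Alb, Apob and Cubn were at 0 in all 6 libraries and Trf had 1 TPM in each. Col4a5 of basement membrane collagen had 18, 18 and 21 TPM at D8, against 10, 7 and 10 TPM at D7 (1.01 ± 0.15, adjusted p = 0.0192). It was the 1 called gene of 12 in the basement membrane list, against 1.57% of all genes called higher. Foxf1, a forkhead factor of lateral plate and gut mesenchyme, had 9, 16 and 22 TPM at D8, against 9, 16 and 3 TPM at D7, and its values overlap. Of 10 mesenchyme transcription factors limma called 0 (3 higher and 2 lower at an unadjusted p under 0.05), with a median of 0.26.

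Of 23 cell cycle genes limma called 0 (9 lower at an unadjusted p under 0.05), but 11 had every D8 library below every D7 library, against 6.26% of all genes, with a median log2 fold change of -0.09. Mcm5, a subunit of the replicative helicase, had 296, 297 and 315 TPM at D8, against 394, 374 and 363 TPM at D7 (-0.32 ± 0.05, adjusted p = 0.0263), which is under the minimum fold. Of 34 tested Hox genes limma called 0 (3 higher and 4 lower at an unadjusted p under 0.05). Medians ran from -0.12 for paralog groups 1 to 4 over 0.12 for groups 5 to 8 to 0.75 for groups 9 to 13. Hoxb1, an anterior Hox gene also active in the posterior growth zone, had 13, 14 and 17 TPM at D8, against 27, 23 and 21 TPM at D7 (-0.66 ± 0.13, adjusted p = 0.0402), and D8 replicate 3 was the highest D8 library for 10 of the 12 genes of groups 9 to 13.

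Among the called genes of highest level were metabolic and membrane genes. Anxa2, a membrane-binding annexin, had 210, 198 and 222 TPM at D8, against 72, 81 and 61 TPM at D7 (log2 fold change 1.55 ± 0.10, adjusted p = 0.00530). Pgm2, a phosphoglucomutase, had 210, 181 and 186 TPM at D8, against 84, 67 and 97 TPM at D7 (1.22 ± 0.13, adjusted p = 0.0108). Ckb, the brain creatine kinase, had 311, 222 and 228 TPM at D8, against 61, 79 and 113 TPM at D7 (1.61 ± 0.25, adjusted p = 0.0297). Lbh, a transcriptional cofactor of heart and limb bud, had 154, 144 and 126 TPM at D8, against 63, 67 and 73 TPM at D7 (1.05 ± 0.09, adjusted p = 0.00932). Ckb and Lbh were also higher at D8 in controls, with 600, 607 and 616 TPM, against 335, 313 and 312 TPM for Ckb, and 149, 144 and 146 TPM, against 87, 88 and 89 TPM for Lbh.

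Some of the largest fold changes came from short or low genes. Mir5133 and Mir339, microRNA precursors of 77 and 96 bases, had 17, 10 and 5 TPM and 6, 10 and 10 TPM at D8, and both were listed at 0 in every D7 library. Single control libraries reached 12 TPM for Mir5133 at D8 and 11 TPM for Mir339 at D7 while the others of those groups were at 0. Of the 205 higher genes, 5 are annotated at under 200 bases, where few reads make a TPM of this size. Atcayos, a noncoding transcript named as antisense to Atcay, had 6, 7 and 2 TPM at D8, against 0, 1 and 0 TPM at D7, and Atcay was called too. The sources used here do not say whether counting used strand, so reads of the pair cannot be told apart.

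In the test of the difference between embryoids and controls, 89 of the 205 higher genes and 4 of the 5 lower genes were called in the same direction. Of all 13751 genes tested there 2.51% were called, 1.61% above and 0.894% below. The remaining 116 higher genes were not called in it. Of the 205, 45 were listed at 0 in all 6 controls and 132 had a control D8 mean above the control D7 mean. This test shares the D8 and D7 embryoid libraries that gave the 205 and the 5, so the shares over all genes are no measure of what these genes would show without a difference, and the controls differ from embryoids at Hprt.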

How the data were processed

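By the study's methods, reads of 75 bases were mapped to mm10 with STAR 2.6.1a, and the values of each gene were normalized as TPM. The submitters' processing notes also name SAMtools 0.1.20, featureCounts and DESeq2. The unit of the deposited table is recorded as a score, since it was worked out from the values: whole numbers with sums of 997897 to 998433 in a library, taken as TPM that the authors rounded.

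Values were taken as log2(TPM + 1), with a pseudocount of 1. Genes with a mean above 1 in D8 or D7 embryoids were tested in limma 3.58.1 (R 4.3.3, statmod 1.5.0) with trended, robust variances on the 6 embryoid libraries. A call needed a two-sided p, adjusted after Benjamini and Hochberg, below 0.05 and a log2 fold change beyond 1 or -1, so 4 genes at exactly 1 stayed out. A second limma fit on all 12 libraries tested the difference of the day changes. Scripts were tested on simulated data. Figures used matplotlib 3.10.9 in Python 3.11.15. The study describes its replicates as independent, and if they were not, p-values measure only the spread between libraries.

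The members and the 50 lists were chosen with earlier results of these data known, and the lists were described without a test. Named genes come from a rule: the largest changes, up to 4 called and 2 uncalled members of each list, the 10 called genes of highest level and genes known from earlier results. Named after their values were seen were Col1a1, Col5a2, Col6a1, Col6a2, Col6a3, Col1a2, Hba-a2, Neurog2, Stmn2, Elavl4, Snap25, Hist1h1c, Hist1h2bc, Hist3h2a, Hist3h2ba, Cox8b, Cryab, Hspb1, Trim63, Mybphl, Mcm5, Emcn, Robo4, Fgf8, Hbb-y, Hprt and Tgoln2. The results were recomputed with pseudocounts of 0.5 and 5, with the filter dropped or raised to 5, with other scalings and variance models, without a minimum fold, with all 12 libraries in one model, with a replicate block and without each library in turn. The counts of list members in these fits, and the summed alpha globins, were added after the data were seen. A withheld gene is not reported here.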

Additional observations from a re-analysis of the deposited data

Results flagged for a closer look

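The change from D7 to D8 in embryoids differed from that in controls for 47 of the 99 genes named here, 43 above the control change and 4 below it, each called by the limma test of the difference on all 12 libraries. Of all genes in that test 2.51% were called. Of the 99, 79 had already been called between D8 and D7 in the same embryoid libraries, so their share is no measure of an excess. Values are differences of the 2 log2 fold changes, embryoids minus controls. Controls listed at or near 0 on both days leave the embryoid change itself as the difference, and the controls stand apart from embryoids at Hprt.

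Matrix genes with a called difference were Postn at 3.37, Col1a2 at 2.78, Lum at 2.51, Dcn at 2.15, Col3a1 at 1.85, Col1a1 at 1.75, Col5a2 at 1.31, Col6a2 at 1.30, Col6a3 at 1.25 and Col6a1 at 1.13. The collagen modifying enzyme P4ha2 stood at 1.34.

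Heart and muscle genes with a called difference were Csrp3 at 2.57, Cox6a2 at 2.39, Pln at 2.20, Cox8b at 1.97, Mybphl at 1.95, Tbx20 at 1.95, Tnni3 at 1.94, Myl1 at 1.60, Hspb1 at 1.59, Trim63 at 1.36, Gata6 at 1.10 and Des at 1.06. Tnni3 was the one of these with control values above 5 TPM.

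Neural genes and regulators were Wnt7a at 2.82, C130071C03Rik at 2.40, Pax6 at 2.06, Mir124a-1hg at 1.93, Neurod4 at 1.62, Neurog1 at 1.04 and Epha3 at 1.01. For Wnt7a and Pax6 every control library at D8 was below every control library at D7, the opposite of embryoids.

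Other genes above the control change were Mir339 at 4.44, Pf4 at 2.76, Afp at 2.64, Atcayos at 2.13, Fos at 1.73, Egr1 at 1.61, Adm at 1.41, Wnt2 at 1.25, Fcer1g at 1.20, Pgm2 at 1.15, Hist1h1c at 1.14, Dkk2 at 1.11 and Fgf10 at 1.01. The Fcer1g value rests on 1, 1 and 2 TPM at D8, at the limit of rounding. Below it were Hba-a1 at -4.72, Gpx2 at -1.85, Cer1 at -1.53 and Tcf15 at -1.06.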

How the results depend on the processing

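The number of genes called fell to 50 (49 higher, 1 lower) with a pseudocount of 5 and to 105 (104 and 1) without a filter, and it was 129 (116 and 13) with median-of-ratios size factors, 113 (97 and 16) with quantile normalization and 125 (123 and 2) in limma without trended and robust variances. It was 711 (603 and 108) with no minimum fold and 366 (348 and 18) in the model of all 12 libraries. Leaving out 1 library gave 0 to 164 calls, 0 to 158 higher and 0 to 7 lower. The difference from controls was called for 110 genes with a pseudocount of 5 and for 1248 with no minimum fold. With the replicate block 48 genes were called (48 higher and 0 lower, 2533 at an unadjusted p under 0.05), and 41 of them were among the 210. Deviations of same-numbered libraries correlated at -0.20, 0.08 and -0.08, and no D8 library correlated best with its own number. With 3 libraries a day and correlations this weak, the check cannot decide whether the numbers pair the samples. The cause of these shifts was not tested. No named gene changed direction under any of the 16 alternatives. Of 17 fits, Anxa2 was called in 16, Bcl11a in 15, Tbx20, Ndrg1, Pgm2, Gadd45g and Afp in 14, Postn in 10 and Des in 5. Depth is unknown, and at 1 or 2 TPM rounding limits every value.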

Other observations

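The 5 muscle genes in this paragraph and the 4 histone genes in the next are single called genes chosen after their values were seen, and no list of such genes was tested. Cryab, a small heat shock protein of muscle, had 33, 48 and 22 TPM in D8 embryoids, against 7, 15 and 8 TPM in D7 embryoids (log2 fold change 1.69 ± 0.36, limma adjusted p = 0.0494). Hspb1, another small heat shock protein, had 10, 13 and 7 TPM at D8, against 2, 4 and 2 TPM at D7 (1.59 ± 0.27). Trim63, a ubiquitin ligase of striated muscle, had 12, 14 and 6 TPM at D8, against 3, 4 and 3 TPM at D7 (1.36 ± 0.28). Mybphl, a myosin-binding protein of the atria, had 10, 11 and 6 TPM at D8, against 1, 3 and 1 TPM at D7 (1.95 ± 0.32), and Cox8b, a cytochrome c oxidase subunit of heart and muscle, had 3, 4 and 2 TPM at D8 and was listed at 0 at D7. All 5 had their lowest D8 value in replicate 3 and 4 of them their highest D7 value in replicate 2, the same libraries as the sarcomere genes.

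Of the histone genes, Hist1h1c, a linker histone, had 29, 32 and 35 TPM at D8, against 10, 11 and 8 TPM at D7 (log2 fold change 1.64 ± 0.13, adjusted p = 0.00786). Hist1h2bc had 14, 13 and 16 TPM at D8, against 8, 5 and 6 TPM at D7 (1.08 ± 0.17). Hist3h2a had 23, 25 and 22 TPM at D8, against 10, 11 and 12 TPM at D7 (1.02 ± 0.10), and Hist3h2ba had 31, 22 and 25 TPM at D8, against 10, 9 and 12 TPM at D7 (1.25 ± 0.15). Their values in controls differed. Hist1h1c had 9, 8 and 11 TPM in D8 controls, against 7, 7 and 5 TPM in D7 controls, and its difference was called (1.14, adjusted p = 0.00838). Hist1h2bc had 9, 9 and 8 TPM in D8 controls, against 7, 5 and 7 TPM in D7 controls (difference 0.67, adjusted p = 0.0842). Hist3h2a had 68, 65 and 70 TPM in D8 controls, against 21 TPM in each D7 control, a larger change than in embryoids (difference -0.62, adjusted p = 0.00376, under the minimum fold). In controls Hist3h2ba had 110, 110 and 118 TPM at D8, against 48, 47 and 45 TPM at D7.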
